A study of Mus musculus with 12 samples.

Results

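Scavenger receptors take modified lipoproteins, fatty acids and cell debris into macrophages, and a small set of enzymes, carriers and transporters decides what becomes of the lipid inside. The 10 genes described here were chosen by name: the scavenger receptors Cd36, Msr1 and Scarb1, the nuclear receptor Pparg, the cholesterol exporters Abca1 and Abcg1, the lipase Lpl, the fatty acid carriers Fabp4 and Fabp5, and the lipid droplet coat gene Plin2. All 10 were found, by symbol and gene identifier, among the 32688 genes of the count table. Of these, 8 were among the 18066 genes with enough counts to be tested, while Pparg and Fabp4 were not.

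The 12 RNA-seq libraries came from RAW264.7, a mouse macrophage cell line. Null cells (WT in the study's text) and TFEB/TFE3 double knockout (DKO) cells, a line made with CRISPR-Cas9, were either controls or treated with 100 µM etoposide for 8 h, with 3 libraries in each of the 4 groups. Etoposide is a topoisomerase II poison that causes DNA breaks, and TFEB and TFE3 are related transcription factors of lysosomal and metabolic genes. Each genotype was represented by 1 cell line, so a difference between genotypes cannot be told apart from a difference between these 2 lines. The labels call the controls untreated, whereas the methods of the study name DMSO, the vehicle. The study calls the samples of a group independent without saying whether they were separate cultures, and p-values measure the spread between these libraries.

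Total counts ran from 29837255 to 61809316 per library. Mitochondrial genes held 19.4% to 21.7% of counts in the treated Null libraries and 14.1% to 18.3% in all others. The part of this difference in the results was not tested. Tfeb was 16.8 ± 0.286 CPM (counts scaled to a common library size with TMM factors; SD, n = 3) in Null control and 4.40 ± 1.12 in DKO control libraries, and Tfe3 was 105 ± 14.8 against 37.8 ± 5.71 CPM. Both transcripts were thus lower in the DKO line (adjusted p = 1.62e-06 and 2.48e-06, limma-trend with Benjamini-Hochberg adjustment) without being absent. For the DKO etoposide group alone, the sample titles mention MEFs (embryonic fibroblasts), although the other labels say RAW264.7. In these 3 libraries the summed level of 8 macrophage markers was 4583 to 4773 CPM, against 4191 to 5130 in the other groups. Single macrophage markers moved apart: 2 were higher and 4 lower in DKO than in Null controls (10.9% and 8.40% of all genes tested). Between the treated lines 2 were higher and 2 lower (15.9% and 17.8% of all genes tested). Fcgr1, an Fc receptor, was 5.12 ± 0.364 CPM in treated DKO, 37.0 ± 0.595 in treated Null, 29.1 ± 1.09 in DKO control and 69.4 ± 4.18 in Null control libraries. Spi1 and Ptprc lay the other way, at 375 ± 15.2 and 243 ± 15.3 CPM in treated DKO against 187 ± 8.56 and 181 ± 3.9 CPM in treated Null libraries. The summed level of 8 fibroblast markers was 1.01 to 1.20 CPM in the treated DKO libraries and at most 2.03 CPM elsewhere.

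As background, CD36 binds oxidised lipoproteins and long-chain fatty acids, and the fatty acids can be stored in droplets coated by perilipin 2. Cholesterol leaves macrophages through ABCA1, which loads lipid-poor apolipoprotein A-I, and ABCG1, which loads mature high-density lipoprotein. PPARγ with RXR and the liver X receptors with RXR are the nuclear receptors best known for driving these genes. PPARγ promotes Cd36, Lpl, Fabp4 and Plin2, and liver X receptors promote Abca1 and Abcg1. TFEB and TFE3 bind E-box motifs with the core CACGTG.

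The promoter sequences of members whose etoposide response differed between the lines are shown with these motifs marked. RefSeq windows (GRCm38.p6) were at hand for 4 of the 10 members. Those of Cd36, Abca1 and Plin2 are printed 5′ to 3′ on the strand of the gene, all minus, as the 250 bases before the RefSeq start, with motif matches in capitals. They lie at chr5:17835897-17836146, chr4:53159896-53160145 and chr4:86670060-86670309. The Abca1 and Plin2 windows adjoin the annotated gene ends, whereas the Cd36 window lies inside the annotated Cd36 gene, before an internal start.
Cd36: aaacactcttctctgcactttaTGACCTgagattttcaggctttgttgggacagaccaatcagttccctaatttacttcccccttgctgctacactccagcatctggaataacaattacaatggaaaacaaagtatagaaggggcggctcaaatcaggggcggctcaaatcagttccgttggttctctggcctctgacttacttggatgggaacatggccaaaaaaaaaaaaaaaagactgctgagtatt
Abca1: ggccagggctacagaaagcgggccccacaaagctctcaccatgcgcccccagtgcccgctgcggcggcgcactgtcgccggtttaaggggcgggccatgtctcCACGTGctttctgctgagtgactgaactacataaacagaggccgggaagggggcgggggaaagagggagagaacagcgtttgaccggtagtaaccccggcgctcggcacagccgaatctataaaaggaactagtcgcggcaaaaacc
Plin2: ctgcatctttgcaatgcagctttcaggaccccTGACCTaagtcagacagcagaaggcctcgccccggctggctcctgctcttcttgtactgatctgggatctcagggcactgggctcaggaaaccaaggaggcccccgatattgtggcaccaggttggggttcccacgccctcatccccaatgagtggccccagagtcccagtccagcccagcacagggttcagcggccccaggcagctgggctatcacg

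The Abca1 window held the E-box CACGTG, which began 147 bases before the start. The Cd36 and Plin2 windows each held a single AGGTCA, the core element of nuclear receptors, on the opposite strand (TGACCT as printed), beginning 228 and 218 bases before the start. Both strands were searched. Of 32851 windows of this length, 6.02% held CACGTG and 14% held AGGTCA. The pairs AGGTCANAGGTCA, the DR1 element of PPAR, and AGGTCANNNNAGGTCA, the DR4 element of liver X receptors, both of which contain AGGTCA, were found in 0.0335% and 0.0152% of windows and in none of these 3. A match is a description of letters, and its absence says only that the letters are not in this window.

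Cd36 (ENSMUSG00000002944.15, chr5:17781690-17888801, minus strand, GRCm38 coordinates as for all genes here) was the member that differed most between the lines. The Null control libraries held 10.3, 10.3 and 10.7 CPM, and the DKO control libraries 132, 152 and 188 CPM. After etoposide, Null cells had 5.41, 5.28 and 4.71 CPM, and DKO cells 159, 152 and 195 CPM. Every DKO library lay above every Null library, and every etoposide-treated Null library lay below the Null controls, while the 2 DKO groups overlapped. In these bulk samples, more cells with the transcript and more transcript in each cell cannot be told apart. Cd36 was 14.8-fold higher in DKO than in Null controls (log2 difference 3.89, SE 0.126, adjusted p = 5.96e-10) and 32.4-fold higher after etoposide (5.02, adjusted p = 4.85e-11). Etoposide lowered it 2.03-fold in Null cells (log2 -1.02, adjusted p = 4.23e-05). In DKO cells the log2 difference was 0.11, with a 95% confidence interval from -0.16 to 0.39 (adjusted p = 0.528). The responses of the lines differed by 1.13 on the log2 scale (adjusted p = 0.00134). The range of the Cd36 group means was larger than that of 99.1% of the genes tested.

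**Figure D1:**
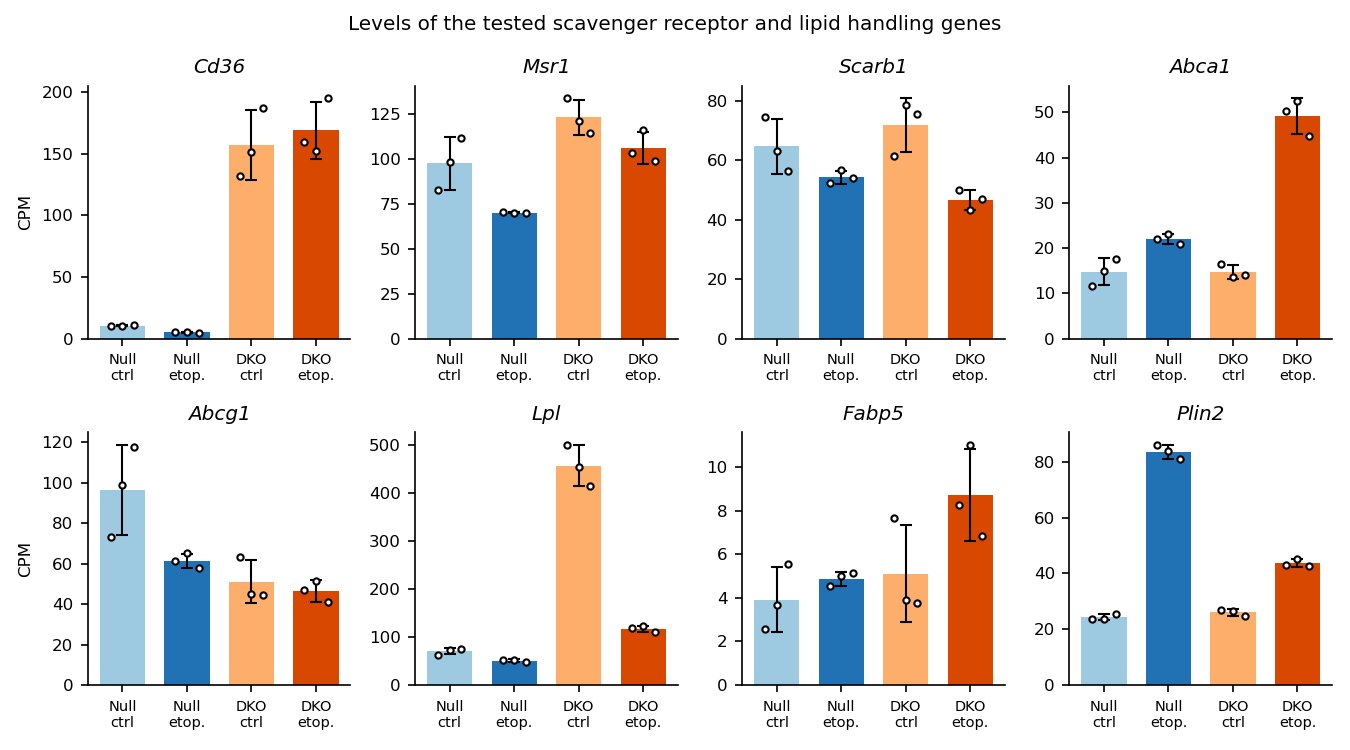
CPM (vertical axis, from 0, scaled for each gene) of the 8 tested members in the 4 groups, with bars for means, error bars for SD and circles for the 3 libraries of a group. Cd36 and Lpl were higher in DKO than in Null libraries in both treatments, whereas Plin2 was highest in Null etoposide and Abca1 in DKO etoposide libraries.

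The other receptors moved less. Msr1 (ENSMUSG00000025044.16, chr8:39581685-39642673, minus strand), the class A scavenger receptor for modified lipoproteins, was 82.5, 98.4 and 112 CPM in Null controls and 70.4, 70.1 and 69.7 CPM after etoposide. It was 134, 121 and 114 CPM in DKO controls and 104, 116 and 99.0 CPM after etoposide. Etoposide-treated Null libraries were therefore the lowest, and the DKO groups overlapped. The fall in Null cells was 0.47 on the log2 scale (adjusted p = 0.0038), and the DKO response of -0.21 did not pass the test (adjusted p = 0.136). Msr1 was higher in DKO than in Null cells by 0.34 (adjusted p = 0.0394) in controls and by 0.60 (adjusted p = 8.31e-04) after etoposide. The control difference lost its call in 12 of 20 alternative settings.

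Scarb1 (ENSMUSG00000037936.15, chr5:125277087-125341094, minus strand), the receptor for high-density lipoprotein, was 74.4, 63.1 and 56.4 CPM in Null controls and 61.3, 78.5 and 75.4 CPM in DKO controls. After etoposide it was 52.3, 56.6 and 54.1 CPM in Null and 49.9, 43.1 and 46.8 CPM in DKO cells. The control groups overlapped, and the treated DKO libraries were the lowest of the 12. It fell by 0.62 in DKO cells (log2, adjusted p = 9.76e-04). The Null response was -0.24 (adjusted p = 0.116), and the responses differed by -0.37 (95% interval -0.73 to -0.02, adjusted p = 0.209), so a difference between the lines was not shown. Without DKO control replicate 1 the latter passed the test (-0.48, adjusted p = 0.0476).

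Lpl (ENSMUSG00000015568.16, chr8:68880491-68907448, plus strand), the secreted lipase that releases fatty acids from triglyceride-rich lipoproteins, was also far higher in the DKO line. Null controls had 63.2, 73.5 and 76.1 CPM and DKO controls 502, 454 and 416 CPM. After etoposide the values were 52.1, 53.2 and 47.5 CPM in Null and 119, 123 and 111 CPM in DKO cells. No 2 groups overlapped. The DKO level was 6.45-fold higher in controls (log2 2.69, SE 0.0924, adjusted p = 1.07e-09) and 2.31-fold higher after etoposide (1.21, adjusted p = 6.52e-07). Etoposide lowered Lpl 1.39-fold in Null cells (adjusted p = 0.00134) and 3.88-fold in DKO cells (adjusted p = 5.42e-09). The difference of the responses was -1.48 (log2, adjusted p = 9.88e-06).

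Of the cholesterol exporters, Abca1 (ENSMUSG00000015243.4, chr4:53030787-53159895, minus strand) did not separate the lines at rest. It was 11.7, 14.9 and 17.6 CPM in Null controls and 16.6, 13.6 and 14.1 CPM in DKO controls, which overlapped (log2 difference 0.01, 95% interval -0.28 to 0.31). After etoposide it was 22.0, 23.0 and 20.8 CPM in Null and 50.2, 52.6 and 44.8 CPM in DKO cells, each treated group above both controls and the DKO group above the Null group. Abca1 rose 1.51-fold in Null cells (adjusted p = 0.00397) and 3.33-fold in DKO cells (adjusted p = 6.51e-07). The responses differed by 1.15 on the log2 scale (adjusted p = 0.00199).

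Abcg1 (ENSMUSG00000024030.6, chr17:31057675-31117988, plus strand) did not follow Abca1. It was 73.1, 99.0 and 118 CPM in Null controls and 63.4, 45.1 and 44.7 CPM in DKO controls. After etoposide it was 61.3, 65.1 and 58.1 CPM in Null and 47.0, 51.5 and 41.0 CPM in DKO cells. Null controls lay above the other 3 groups, and the 2 DKO groups overlapped. It was 1.88-fold lower in DKO than in Null controls (log2 -0.91, adjusted p = 0.00199) and fell 1.54-fold in Null cells (adjusted p = 0.0114). The difference after etoposide was -0.41 (adjusted p = 0.0878, and 0.0371 without DKO control replicate 1), the DKO response was -0.12 (adjusted p = 0.62), and the responses differed by 0.50 (95% interval -0.02 to 1.03, adjusted p = 0.267).

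Plin2 (ENSMUSG00000028494.12, chr4:86648386-86670060, minus strand), which coats lipid droplets and is a common reading of their presence, was induced in both lines and more so in Null cells. Null controls had 23.6, 23.6 and 25.5 CPM and DKO controls 27.1, 26.6 and 24.8 CPM. After etoposide Null cells had 86.1, 83.9 and 81.0 CPM and DKO cells 43.0, 45.3 and 42.6 CPM. Controls overlapped, and all treated libraries lay above them, those of Null cells above those of DKO cells. The rise was 3.44-fold in Null cells (log2 1.78, SE 0.0678, adjusted p = 1.97e-09) and 1.67-fold in DKO cells (0.74, adjusted p = 2.86e-06). The responses differed by -1.04 (adjusted p = 1.49e-05), and Plin2 was 1.92-fold lower in the treated DKO than in the treated Null libraries (adjusted p = 3.87e-07).

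Fatty acid carriers of the cytosol were at low levels. No member shared exon bases with another annotated gene of the count table. Fabp5 (ENSMUSG00000027533.10, chr3:10012548-10016607, plus strand) was 2.56, 3.65 and 5.54 CPM in Null controls, 4.52, 4.98 and 5.13 CPM in treated Null cells, 7.66, 3.89 and 3.75 CPM in DKO controls and 8.25, 11.03 and 6.85 CPM in treated DKO cells. Neighbouring groups overlapped. The log2 difference in DKO cells was 0.82 (SE 0.303, adjusted p = 0.0493), a call lost in 13 of 20 alternative settings. Between the treated lines it was 0.80 (adjusted p = 0.06 with limma-trend and 0.0465 with edgeR). Of the distinct 75-base words in the annotated Fabp5 transcripts, 3.03% also occur in other genes. The share of its reads that this affects was not measured.

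Fabp4 (ENSMUSG00000062515.3, chr3:10204088-10208576, minus strand) and Pparg (ENSMUSG00000000440.12, chr6:115360951-115490399, plus strand) were close to the limit of detection. Fabp4 had no count in Null controls, which over 3 libraries allows up to 0.0233 CPM (counting error only). The DKO controls held 1, 2 and 1 counts, treated Null cells 5, 1 and 2, and treated DKO cells 7, 12 and 3. In a fit without the filter on low counts the log2 response was 1.00 in DKO (adjusted p = 0.0495) and 0.80 in Null cells (adjusted p = 0.117). In that fit the responses differed by 0.21 (adjusted p = 0.878), and these values rest on at most 12 counts in a library. Pparg had 0, 0 and 3 counts in Null controls, 2, 3 and 8 in treated Null cells, 1, 0 and 0 in DKO controls and 5, 2 and 2 in treated DKO cells. At 26 Pparg counts over all 12 libraries, no difference between the groups was detectable at this depth.

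**Figure D2:**
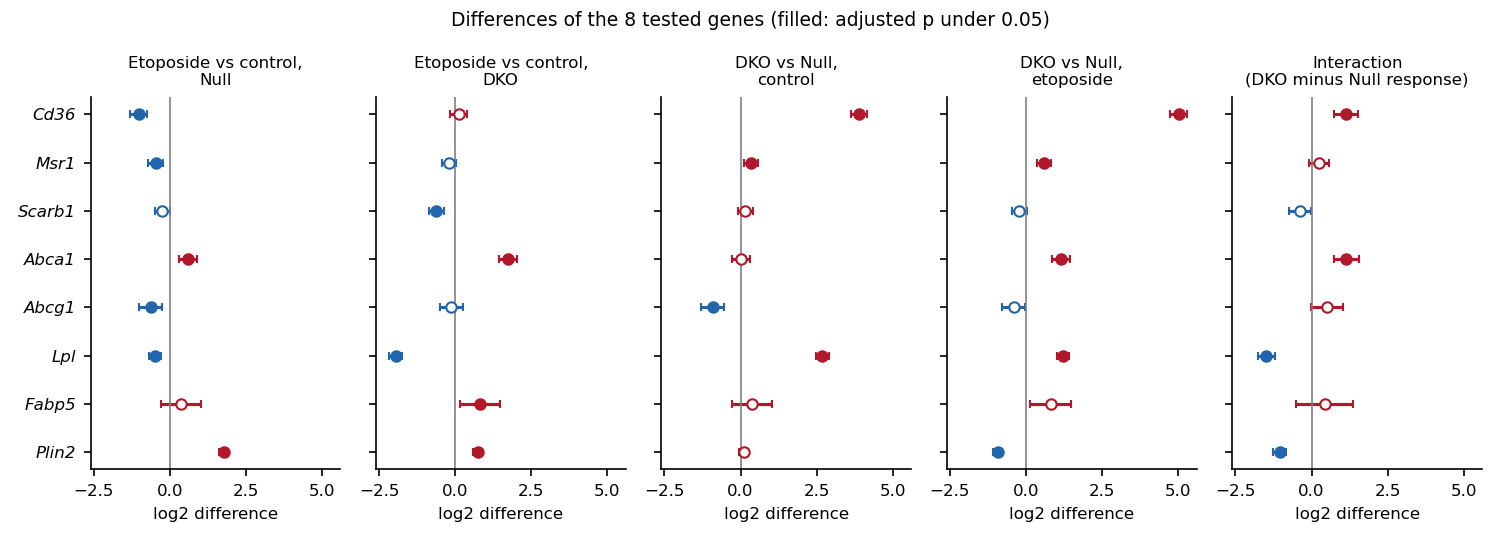
Log2 differences (horizontal axis) of the 8 tested members in 5 comparisons, with 95% confidence intervals; filled points passed the test (adjusted p under 0.05), red is above and blue below 0. Cd36 reached 5.02 in the comparison of the lines after etoposide, and Lpl and Plin2 lay below 0 in the interaction.

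Counts over the members were read against all genes tested. In Null cells etoposide raised 2 of the 8 members (Plin2 and Abca1) and lowered 4 (Cd36, Msr1, Abcg1 and Lpl), where 20.9% of all genes rose and 18.7% fell. In DKO cells it raised 3 (Abca1, Plin2 and Fabp5) and lowered 2 (Lpl and Scarb1), where 20.2% rose and 19.1% fell. Between control lines 3 were higher in DKO cells (Cd36, Lpl and Msr1) and 1 was lower (Abcg1), against 10.9% and 8.40%. With library size alone as the scaling, the share of all calls that were higher there went from 56.5% to 43.4%, and Msr1 was no longer called. After etoposide 4 were higher (Cd36, Lpl, Abca1 and Msr1) and 1 lower (Plin2), against 15.9% and 17.8%. The responses differed for 2 members in each direction, Cd36 and Abca1 upward and Lpl and Plin2 downward, against 3.07% and 6.39%. The members' median log2 difference was -0.35 in Null cells (all genes 0.03) and 0.70 between the treated lines (all genes -0.01). The members were chosen with results known, and comparisons share groups, so these counts carry no test.

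On a scale corrected for exon length (RPKM, reads scaled to kilobases of exon and to library size), the order of the levels also changed. In Null controls Msr1 led with 15.4 RPKM, followed by Abcg1 with 13.2 and Scarb1 with 7.604, and Cd36 stood at 2.91. In DKO controls Cd36 with 43.8 and Lpl with 43.7 RPKM led, and Msr1 followed with 19.4. After etoposide Plin2 led in Null cells with 23.8 RPKM and Cd36 in DKO cells with 47.1. The lengths join all annotated exons of a gene, so levels between genes are approximate.

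Markers of osteoclasts, a cell type that RAW264.7 cells can form, moved with the lines and are given beside Cd36, Lpl and Abca1. The summed level of 8 such markers was 116 to 166 CPM in Null controls, 130 to 135 in treated Null cells, 247 to 307 in DKO controls and 589 to 677 in treated DKO cells. Of the 6 markers tested, 5 were higher in DKO than in Null controls (10.9% of all genes) and 4 were higher between the treated lines (15.9% of all genes). None was lower in either comparison (8.40% and 17.8% of all genes). Nfatc1, the transcription factor of osteoclast formation, made up most of the sum, with 592 ± 47.4 CPM in treated DKO and 123 ± 2.57 CPM in treated Null cells. Ocstamp and Dcstamp, which act in cell fusion, were 32.9 ± 0.66 against 3.61 ± 0.364 CPM and 11.5 ± 1.81 against 4.23 ± 0.0946 CPM in the same groups. Acp5, the tartrate-resistant acid phosphatase, was 6.22 ± 0.553 against 0.459 ± 0.13 CPM. Atp6v0d2 was called between the control lines but not between the treated lines, at no more than 0.366 CPM, and Ctsk, the protease of bone resorption, was not called in either comparison and stayed at or below 0.357 CPM in every library. Oscar and Calcr, with 69 and 12 counts in all, were not tested. Their part in the results was not tested. The summed level of 8 adipocyte markers was at most 2.37 CPM.

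**Figure D3:**
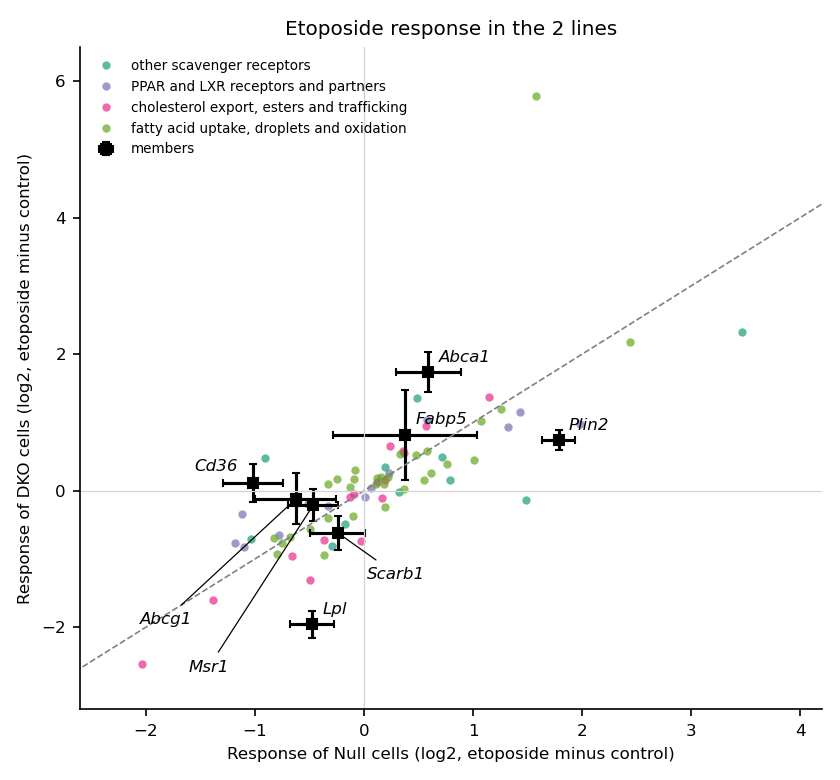
Etoposide response in DKO cells (vertical, log2) against that in Null cells (horizontal, log2) for the members (black squares, 95% confidence intervals) and 4 lists of related genes (dots); the dashed line marks equal responses. Abca1 and Cd36 lay above the line, Plin2 and Lpl below it.

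Of 20 other scavenger receptors listed, 11 were tested. Etoposide raised 4 (36.4%) and lowered 3 (27.3%) in Null cells, where 20.9% of all genes rose and 18.7% fell. Without the filter on low counts 8 of all 20 were raised, against 13.7% of 32688 genes. The receptors that this fit adds held at most 13 counts in a library, close to the limit of detection. Between the treated lines 4 were higher and 3 lower in DKO cells, where 15.9% of all genes were higher and 17.8% lower. Colec12, a scavenger receptor with a collectin domain, was higher in treated DKO than in treated Null cells by 0.87 (log2, adjusted p = 4.99e-07). Stab1, a receptor for acetylated lipoprotein, was 3.38 ± 0.469 CPM in Null controls and rose to 37.8 ± 1.86 CPM with etoposide, and it reached 14.9 ± 1.30 CPM in DKO cells, lower than in Null cells by 1.35 (log2 -1.35, adjusted p = 7.53e-06). Ager, the receptor for advanced glycation end products, was also lower, with a log2 difference of -1.62 (adjusted p = 5.57e-05). Marco and Cd163 had 13 and 10 counts over all libraries and were not tested.

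Of 16 nuclear receptors and partners 13 were tested. In Null cells etoposide raised 4 (30.8%, against 20.9% of all genes) and lowered 5 (38.5%, against 18.7%). In treated DKO against treated Null cells 4 were higher (30.8%, against 15.9%) and none was lower (against 17.8%), or 1 with only these 2 groups in the fit (22.9% of all genes). Rxra, a common partner of these receptors, rose by 1.98 in Null cells (log2, adjusted p = 3.69e-05), and Nr1h3, which encodes liver X receptor alpha, by 1.43 (adjusted p = 2.43e-04). Their levels were low, from 0.488 to 2.05 CPM for Rxra and from 3.43 to 9.17 CPM for Nr1h3. In the same Null control and treated Null groups, Rxrb was 58.7 and 60.7 CPM and Nr1h2 38.1 and 44.5 CPM. The coactivators Ncoa2 and Ppargc1b had log2 differences of -1.18 (adjusted p = 3.54e-08) and -1.12 (adjusted p = 1.36e-04) with etoposide in Null cells. Cebpb and Cebpa, transcription factors of macrophage and fat cell differentiation, were higher in treated DKO cells by 0.72 (adjusted p = 0.00205) and 0.39 (adjusted p = 0.00876).

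Among 16 tested of 17 genes of cholesterol export, esters and trafficking, etoposide raised 4 and lowered 4 in Null cells (25% each, near the 20.9% and 18.7% of all genes). The number raised was 2 without Null etoposide replicate 2 (17.0% of all genes), when Apoc2 and Pltp lost their calls. In treated DKO against treated Null cells 3 were higher (18.8%, against 15.9% of all genes) and 6 lower (37.5%, against 17.8%), and with only these 2 groups in the fit 5 were higher (22.9% of all genes). Soat2, an enzyme that esterifies cholesterol, fell by 2.03 (log2, adjusted p = 6.71e-08) and Lipa, the lysosomal acid lipase, by 1.38 (adjusted p = 7.36e-05) in Null cells. Lipa was 0.66 higher in treated DKO than in treated Null cells (adjusted p = 0.0147). This call was lost without Null etoposide replicate 2 or without DKO etoposide replicate 3. Pltp, the phospholipid transfer protein, was higher by 1.64 in the same comparison (adjusted p = 1.03e-05). Apoc2, the cofactor of lipoprotein lipase, was lower, with a log2 difference of -2.31 (adjusted p = 9.94e-05), at a level of 0.122 ± 0.0211 CPM in treated DKO cells. Exons of Pltp overlap those of Ctsa on the opposite strand and exons of Apoc2 those of Gm44805 on the same strand. At the mean read density of the neighbour, the shared bases could hold reads equal to 193% of the Pltp counts over all libraries. The same share for Apoc2 was 85.2%. Reads from the shared Apoc2 bases could come from either gene whatever the strand. For Pltp this depends on the strand setting of the counting, which is not given in the sources used here. Arl4c stood at 0.0332 ± 0.0433 CPM in treated DKO and 0.246 ± 0.0878 CPM in treated Null cells (log2 -1.79, adjusted p = 0.00918). The treated DKO value rests on 6 counts and depends on the prior count, with -2.74 from edgeR (adjusted p = 0.016).

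Of 45 genes of fatty acid uptake, droplets and oxidation 31 were tested. Etoposide raised 10 (32.3%, against 20.9% of all genes) and lowered 6 (19.4%, against 18.7%) in Null cells. In treated DKO against treated Null cells 4 were higher and 4 lower (12.9% each, below the 15.9% and 17.8% of all genes). The number higher was 7 without DKO control replicate 1 (18.6% of all genes), and with only these 2 groups in the fit 10 were higher and 7 lower, where 22.9% of all genes were called in each direction. Lipg, the endothelial lipase of the same family as Lpl, was 14.8 ± 0.488 CPM in treated DKO, 0.225 ± 0.108 in DKO control, 0.141 ± 0.0594 in treated Null and 0.00673 ± 0.0117 in Null control libraries. It was higher by 6.25 on the log2 scale between the treated lines (adjusted p = 1.04e-08), a value that depends on the prior count because the Null level was so low. Lpin1, a phosphatidate phosphatase of triglyceride synthesis, rose from 8.60 ± 0.543 to 46.7 ± 0.929 CPM in Null cells (log2 2.44, adjusted p = 2.16e-08) and was lower in treated DKO cells by 1.14 (log2 -1.14, adjusted p = 1.4e-05). Acsl4, which activates long-chain fatty acids, was 0.83 higher there (adjusted p = 7.51e-06), and the carnitine palmitoyltransferase gene Cpt1b had a log2 difference of -1.23 (adjusted p = 8.23e-05). Cpt1b was 2.32 CPM in treated DKO and 5.47 CPM in treated Null libraries, and Cpt1a of the same list was 51.4 and 48.7 CPM. In Null cells the acyl-CoA synthetases Acsl1 and Acsl3 fell by 0.83 (adjusted p = 4.73e-05) and 0.80 (adjusted p = 3.11e-04).

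**Figure D4:**
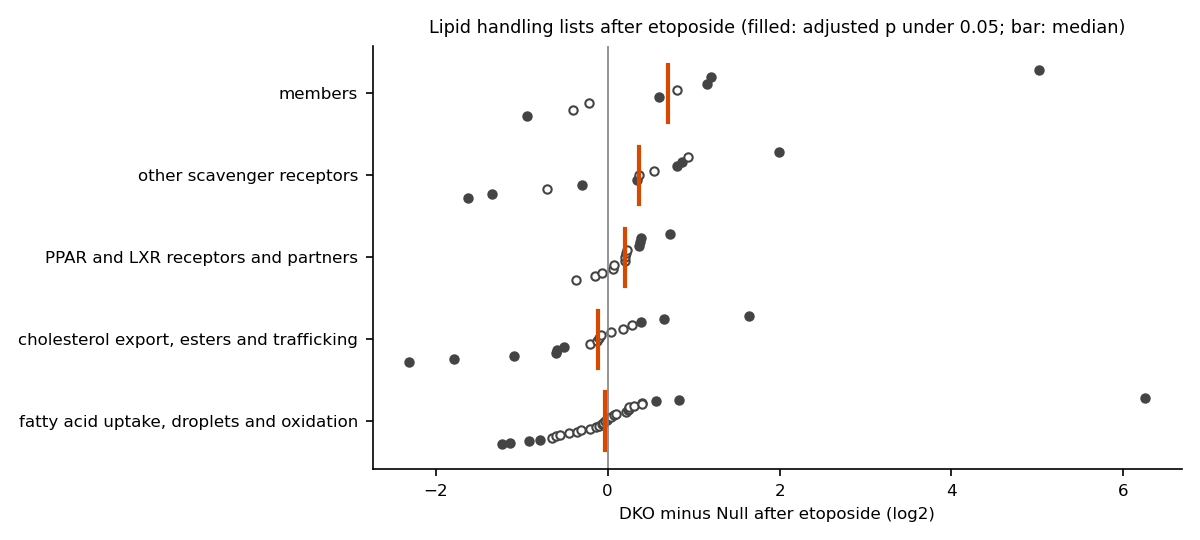
Log2 difference between DKO and Null cells after etoposide (horizontal axis) for the tested genes of the members and 4 lists (rows), with filled points for adjusted p under 0.05 and an orange bar at the median. The member median was 0.70, and the largest single value was that of Lipg, 6.25.

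Genes whose log2 CPM followed a member most closely over the 12 libraries are given as a description, since libraries of a group share their level. For Cd36 these were Zdhhc3 (Pearson r = 0.998) and Cd276 (r = 0.996). Zdhhc3 went from 118 ± 0.973 CPM in Null to 177 ± 1.08 CPM in DKO controls, and Cd276 from 14.7 ± 0.983 to 55.5 ± 6.57 CPM. The correlation does not measure the size of a difference. For Lpl they were Glce (r = 0.989) and Gm44649 (r = 0.981), for Plin2 Tnpo2 (r = 0.995) and Atg13 (r = 0.991), and for Abca1 Odc1 (r = 0.995) and Slc37a2 (r = 0.990). Odc1 was 732 ± 81.6 CPM in treated DKO against 273 ± 11.8 CPM in treated Null cells.

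Within groups the libraries were not even. In Null controls replicate 3 was the highest library for 7 of the 8 members and replicate 1 the lowest for 5. In DKO controls replicate 1 was the highest for 6 and replicate 3 the lowest for 5. In treated Null cells replicate 3 was the lowest for 6, and in treated DKO cells replicate 2 was the highest for 6 and replicate 3 the lowest for 6. Over all 18066 genes tested, the median SD was 0.21 in Null controls, 0.24 in DKO controls, 0.09 in treated Null and 0.15 in treated DKO libraries (log2).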

How the data were processed

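Gene-level RNA-seq counts of 12 libraries were analysed. The authors made stranded total RNA libraries after ribosomal RNA removal, sequenced read pairs, aligned them with HISAT2 to mm10 and kept unique pairs. They deposited whole-number counts for each gene, without normalization. The labels name featureCounts as the counter and the study's methods HTSeq, which could not be settled here. The labels name 2 RNA extraction kits without assigning them to libraries.

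Counts were converted to log2 CPM (TMM factors 0.939 to 1.03, prior count 3), and 18066 genes passing filterByExpr, with 99.96% of counts, were tested with limma 3.58.1 (limma-trend, robust) in R 4.3.3, all 4 groups in 1 fit. P-values were two-sided and Benjamini-Hochberg adjusted over all genes tested, with a threshold of 0.05. The 5 comparisons included the interaction of genotype and etoposide. edgeR 4.0.16 and DESeq2 1.42.0 were alternatives. The fit was tested on simulated data. Gene coordinates and lengths came from GENCODE M21 (GRCm38), which held 99.4% of the identifiers, and promoter windows from RefSeq.

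Besides the members, Tfeb and Tfe3, the text names for each list the 2 called genes with the largest differences in each direction, in 2 comparisons, and the 2 genes most like the 4 members with the largest range. Marco, Cd163, Fcgr1, Spi1, Ptprc, Rxrb, Nr1h2, Soat1, Cpt1a and the osteoclast markers were named after their values were seen. The members and lists were chosen with earlier results of these data known. Same-numbered replicates did not consistently deviate together, so the numbers were not taken as pairs. The median correlations of their deviations were -0.0116, -0.0014 and -0.0064 for replicates 1, 2 and 3. Single pairs ran from -0.54 to 0.39. Total counts per library limit the precision of low genes. Ch25h was not analysed here, and 1 gene that the naming rule selects is not reported here.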

Additional observations from a re-analysis of the deposited data

Results flagged for a closer look

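For 4 members the etoposide response of DKO cells differed from that of Null cells by the interaction test (limma-trend with Benjamini-Hochberg adjustment). On the log2 scale the DKO minus Null response was 1.13 for Cd36 (adjusted p = 0.00134), 1.15 for Abca1 (adjusted p = 0.00199), -1.48 for Lpl (adjusted p = 9.88e-06) and -1.04 for Plin2 (adjusted p = 1.49e-05). Cd36 fell in Null cells, whereas Abca1 and Plin2 rose and Lpl fell in both lines to unequal extents.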

How the results depend on the processing

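Over 20 alternative settings, 748 of 792 member values kept their direction and their side of the threshold, 25 lost and 12 gained a call, and 7 changed sign, none of them called. With only the 2 groups compared in the fit, the number of members called between the treated lines went from 5 to 8 of 8, where 45.8% of all genes were called, and the number of genes called between the control lines from 3491 to 2073. Abca1 between the control lines was -0.0157 with DESeq2, -0.0038 with edgeR and -0.0694 with library size alone, and ran from -0.1418 to 0.1521 with a library left out. In DKO cells the etoposide difference ran from -0.2067 to 0.0443 for Abcg1 and from -0.0057 to 0.2473 for Cd36. The lost calls were those of Msr1 between the control lines and Fabp5 in DKO cells. With the replicate block, Msr1 (adjusted p = 0.0798) and Fabp5 (adjusted p = 0.0921) lost these calls, and no other member call changed. Without DKO control replicate 1 or Null control replicate 1, Abcg1 (adjusted p = 0.0371 and 0.036) and Fabp5 gained a call between the treated lines, and Scarb1 gained one in Null cells without Null control replicate 3 (adjusted p = 0.0403). Lipa lost its call between the treated lines without Null etoposide replicate 2 or DKO etoposide replicate 3 (adjusted p = 0.0507 and 0.0682). Leaving out a library, the members called numbered 6 to 7 in Null cells, 4 to 5 in DKO cells, 3 to 4 between control lines, 5 to 7 between treated lines and 4 to 5 for the interaction. Without filtering, the median of all genes shifted to 0.11 in Null cells. The cause of these changes was not tested.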
